A study of Homo sapiens with 36 samples.

Results

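Matrix metalloproteinases and their tissue inhibitors were followed in a human colorectal carcinoma line from which the DNA methylation factors UHRF1 and DNMT1 could be removed. The 10 members, MMP1, MMP2, MMP7, MMP9, MMP10, MMP13, MMP14, TIMP1, TIMP2 and TIMP3, were chosen by symbol and matched to the gene identifiers of the count files through GENCODE. They are 10 of 60462 annotated genes, and 9 of them were among the 15415 protein-coding genes with enough reads for a test. MMP10 was the member that did not pass this filter, while MMP1, MMP2 and MMP13, near 0 reads in the WT line, passed it through the degron groups in which they were high. MMP7 passed it through WT and DNMT1-AID libraries.

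Transcripts were measured by polyA RNA-seq in 36 libraries of HCT116 cells, an established line grown from a human colorectal carcinoma. There were 4 lines, namely WT, cells with one protein on a degron (DNMT1-AID or UHRF1-AID) and cells with both (UHRF1-AID/DNMT1-AID, the double degron cells), each sampled on days 2, 6 and 8 with 3 libraries per group. In the AID lines the named protein, or both proteins, carried a mini-AID tag that sends it to the proteasome when auxin is added, and every line, WT included, carried OsTIR1, the plant adaptor needed for this, under a doxycycline-inducible promoter. All groups received 2 µg/mL doxycycline until collection, first with 20 µM auxinole, a blocker of OsTIR1, for 1 day, and then with 500 µM auxin. WT thus differed from the degron cells by the tags and not by the drugs. The degron groups of this study were generally built from several clones, but the labels do not tie a library to a clone, and the p-values therefore measure the spread between these libraries.

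Matrix metalloproteinases are zinc enzymes that cut collagens and other proteins of the extracellular matrix, and most are secreted as inactive precursors. TIMPs bind the active site and block it, and TIMP2 can also help the membrane enzyme MMP14 to activate the MMP2 precursor. Several of the genes carry AP-1 sites near their start and are known to be induced in tumours, in inflammation and in cells with a secretory stress response, whereas MMP7 is an epithelial enzyme often made by intestinal tumour cells. RNA counts report transcripts and say nothing of secreted protein or of enzyme activity.

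The libraries held 21074536 to 37175136 counted reads, with a median of 25031562.5. Values are given as CPM, the reads of a gene as a share of the library, scaled by TMM, a method that corrects for the RNA composition of each library. Markers of colorectal epithelium were abundant in every group, at 3491 to 11050 CPM summed over 10 genes, although CDX1 was at 0 reads in WT on each day. Against WT, the mRNA of DNMT1 fell in the DNMT1-AID and double degron cells on each day, with log2 fold changes of -2.18 to -1.38. It was also lower in UHRF1-AID on day 2 (-0.71), and the mRNA of UHRF1 passed the test in the double degron cells of day 8 alone (-1.29). The degron acts on protein, so these values do not check the degradation. The share of reads from mitochondrial genes on day 8 was 2.87% to 3.73% in WT, 4.79% to 7.93% in DNMT1-AID, 4.68% to 7.41% in UHRF1-AID and 7.72% to 10.84% in the double degron cells. It was thus above WT in each degron line, and its part in the day 8 differences described here was not tested.

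Of the 10 members, 5 had a promoter window of 250 bases before and 50 bases after the start in the RefSeq table of GRCh38.p14. The windows of MMP7, MMP10, MMP14, TIMP1 and TIMP3 held 4, 2, 10, 16 and 31 CpG dinucleotides, against a median of 14 over 35116 windows. The CpG-poorest of the 5 belonged to the protease genes of chromosome 11 and the richest to TIMP3. The AP-1 site, searched as TGACTCA or TGAGTCA on both strands, occurred in MMP7 alone of the 5, at position -67, and in 4.95% of all windows. DNA methylation was not measured in these files. In the double degron cells of day 8, MMP7 was below WT, and TIMP1 and TIMP3 were above it. To show the range of CpG counts, the stretches before the starts of these genes are printed, with CpG and AP-1 sites in capitals. They read from 5′ to 3′ on the strand of the gene. They lie at chr11:102530748-102530997 (minus strand), chrX:47582186-47582435 (plus strand) and chr22:32801455-32801704 (plus strand).
MMP7: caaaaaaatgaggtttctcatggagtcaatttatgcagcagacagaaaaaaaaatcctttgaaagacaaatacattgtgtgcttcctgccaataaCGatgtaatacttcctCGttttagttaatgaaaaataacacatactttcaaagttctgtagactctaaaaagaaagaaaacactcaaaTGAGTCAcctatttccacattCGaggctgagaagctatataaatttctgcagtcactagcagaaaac
TIMP1: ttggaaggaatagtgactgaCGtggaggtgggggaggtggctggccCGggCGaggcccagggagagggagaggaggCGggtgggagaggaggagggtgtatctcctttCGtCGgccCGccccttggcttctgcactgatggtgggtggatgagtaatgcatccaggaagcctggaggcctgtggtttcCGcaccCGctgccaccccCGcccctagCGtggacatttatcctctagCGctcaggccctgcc
TIMP3: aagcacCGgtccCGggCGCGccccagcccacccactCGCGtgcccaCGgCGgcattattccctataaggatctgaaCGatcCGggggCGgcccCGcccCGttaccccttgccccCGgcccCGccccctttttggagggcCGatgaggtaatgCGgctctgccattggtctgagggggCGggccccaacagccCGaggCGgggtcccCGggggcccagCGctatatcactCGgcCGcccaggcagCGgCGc

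The members fell into 3 patterns. The collagenase genes MMP1 and MMP13 were close to silent in WT and rose in each degron line, with the highest mean of MMP1 in UHRF1-AID and that of MMP13 in the double degron cells. MMP9, TIMP1 and TIMP3 had their highest means in the cells without both proteins, as did MMP13, MMP2 and TIMP2, so the patterns overlap. MMP7 fell to 0 reads in these cells on day 8. MMP14 and TIMP2, which were well expressed in WT, differed from WT of the same day by less than 2-fold. MMP2 and MMP10 stayed near the limit of detection in most groups.

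**Figure D1:**
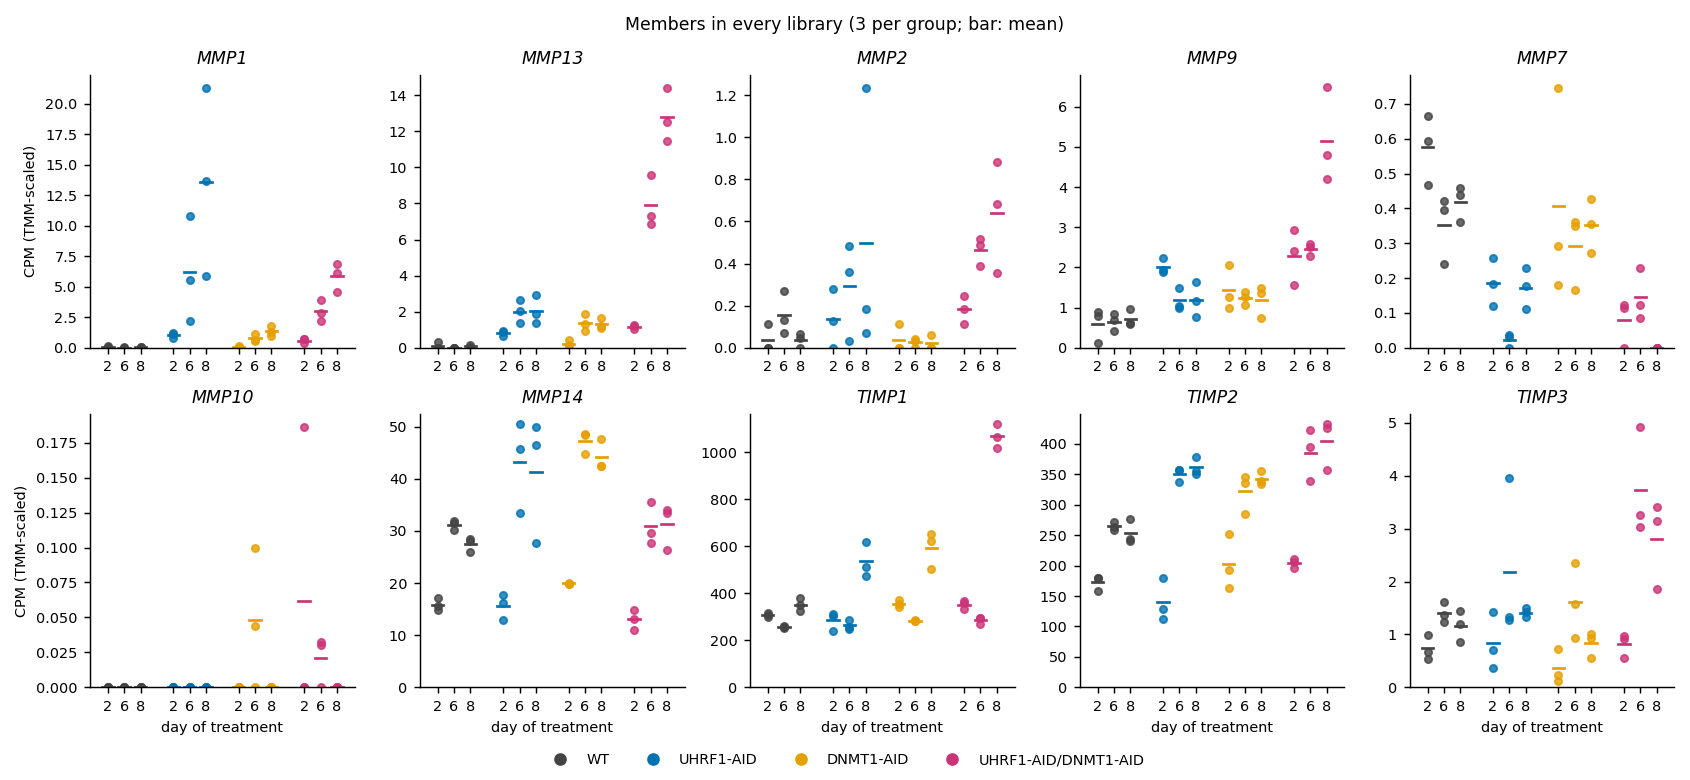
Level of each of the 10 members in every library, in TMM-scaled CPM on linear axes from 0, by line (colour) and day, with a point for each library and a bar for the mean of 3. MMP1 and MMP13 sat near 0 in WT on each day and above WT in all libraries of the 3 degron lines on days 6 and 8, and MMP7 was at 0 in the 3 UHRF1-AID/DNMT1-AID libraries of day 8.

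MMP1, interstitial collagenase, cuts fibrillar collagen and is normally made by activated fibroblasts, macrophages and some tumour cells. The gene (ENSG00000196611.6) lies on the minus strand of chromosome 11 at 102789401 to 102798160 (GRCh38). In WT the 3 libraries of day 2 held 1, 0 and 2 reads, those of day 6 held 0, 0 and 1, and those of day 8 held 0, 2 and 3. In UHRF1-AID the level was 1.14, 0.815 and 1.23 CPM on day 2, 10.8, 2.21 and 5.51 CPM on day 6, and 21.3, 5.87 and 13.6 CPM on day 8. Each of these 9 libraries was above each WT library, and the day 8 libraries differed among themselves by more than 3-fold, with replicate 2 the lowest of its group on every day. The day 8 log2 fold change against WT was 7.55 ± 1.12 (SE, n = 3 and 3; edgeR adjusted p = 2.03e-10).

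The rise of MMP1 was smaller and later in DNMT1-AID. Its libraries gave 0, 0.0586 and 0.12 CPM on day 2, which overlapped WT, then 1.16, 0.568 and 0.632 CPM on day 6 and 1.79, 0.985 and 1.32 CPM on day 8. Against WT the day 6 libraries held 62 reads where WT held 1, a ratio of 64.4 with a 95% counting interval of 11.1 to 2580 (edgeR adjusted p = 0.00118). The day 8 log2 fold change was 4.26 ± 1.14 (SE; adjusted p = 7.4e-05). UHRF1-AID/DNMT1-AID lay between the single lines, at 0.688, 0.677 and 0.372 CPM on day 2, 3.88, 2.22 and 2.85 CPM on day 6 and 4.59, 6.89 and 6.12 CPM on day 8. It was above WT on each day (adjusted p = 0.0253, 1.5e-07 and 3.02e-09). The day 2 call rested on 29 reads against 3 and was lost without WT replicate 1 or 2 (adjusted p = 0.0796 and 0.0853) or UHRF1-AID/DNMT1-AID replicate 1 or 2 (0.0684 and 0.0634).

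Set against each other, UHRF1-AID exceeded DNMT1-AID in MMP1 on each day, by a log2 fold change of 4.06 on day 2 (75 reads against 3), 2.92 on day 6 and 3.29 on day 8 (edgeR adjusted p = 0.003, 0.000113 and 4.67e-06). With only the libraries compared in the fit, the day 6 call of MMP1 was lost. For this pair no member then passed on day 6, and only 1 did on each of days 2 and 8. UHRF1-AID/DNMT1-AID was 1.21 lower than UHRF1-AID on day 8 on the log2 scale (adjusted p = 0.012), but the libraries overlapped. Without UHRF1-AID replicate 1 the difference was -0.73 (adjusted p = 0.154) and without UHRF1-AID/DNMT1-AID replicate 1 it was -1.07 (adjusted p = 0.0527). In the order of the 12 groups by mean level, UHRF1-AID on days 8 and 6 stood first, followed by UHRF1-AID/DNMT1-AID on days 8 and 6, and neighbours among the first 3 of these overlapped. MMP1 shares 223 exon bases, 8.1% of its exons, with the pseudogene WTAPP1 on the opposite strand, and WTAPP1 carried 896 reads over the 36 libraries where MMP1 carried 2682. The day 8 libraries of UHRF1-AID held 409 reads of WTAPP1 beside 1181 of MMP1, and those of DNMT1-AID held 39 beside 108, so that the ratio of the pair was 0.346 and 0.361. The methods name a non-stranded mode for the counts of repeats in these libraries and no strand setting for the gene counts, and reads of the shared bases cannot be told apart.

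MMP13, collagenase 3, cuts type II and other fibrillar collagens and is known from cartilage, bone and breast tumours. It is the last gene of the chromosome 11 cluster (ENSG00000137745.12, minus strand, 102942995 to 102955732). The WT libraries held 0, 0 and 6 reads on day 2, no reads on day 6, and 0, 4 and 2 reads on day 8. The UHRF1-AID/DNMT1-AID libraries gave 1.26, 1.05 and 1.18 CPM on day 2, 9.56, 7.31 and 6.87 CPM on day 6 and 14.4, 12.5 and 11.5 CPM on day 8. They stood above every library of the other 3 lines on each day, within a narrow spread. Against WT the log2 fold change was 3.37 ± 0.80 on day 2 and 7.21 ± 0.77 on day 8 (SE, n = 3 and 3; edgeR adjusted p = 0.000167 and 5.49e-14). On day 6 the level was at least 208-fold higher, with 3 reads over the WT group taken as the limit of a count of 0 (adjusted p = 4.68e-13).

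MMP13 was lower in the single degron lines than in the double degron cells. UHRF1-AID gave 0.636, 0.858 and 0.913 CPM on day 2, 1.37, 2.63 and 2.03 CPM on day 6 and 1.38, 2.9 and 1.89 CPM on day 8. DNMT1-AID gave 0.115, 0.41 and 0.18 CPM on day 2, 1.3, 1.88 and 0.903 CPM on day 6 and 1.18, 1.63 and 1.07 CPM on day 8. UHRF1-AID was above WT on day 2 (log2 fold change 2.85 ± 0.80, adjusted p = 0.0013), at least 53-fold above it on day 6 (adjusted p = 5e-09) and 4.57 ± 0.78 above it on day 8 on the log2 scale (adjusted p = 5.93e-08). DNMT1-AID gave 1.09 ± 0.92 with an adjusted p of 0.538 on day 2. It passed the test on day 6 (at least 35.3-fold, adjusted p = 2e-07) and day 8 (3.90 ± 0.79, adjusted p = 2.82e-06). The difference between UHRF1-AID and DNMT1-AID passed the test on day 2 (1.76, adjusted p = 0.0271). That call was lost without UHRF1-AID replicate 2 or 3 (0.0588 and 0.0643) or DNMT1-AID replicate 1 or 3 (0.118 and 0.0961), and with only the libraries compared in the fit (0.0654). The difference missed the threshold on day 6 (0.57, adjusted p = 0.33) and day 8 (0.66, adjusted p = 0.198), where their libraries overlapped.

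The excess of MMP13 in UHRF1-AID/DNMT1-AID over UHRF1-AID was 1.97 on day 6 and 2.64 on day 8 in log2 fold change (edgeR adjusted p = 0.000102 and 1.29e-07), and over DNMT1-AID it was 2.54 and 3.30 (1.27e-06 and 4.24e-09). The libraries did not overlap in any of these 4 comparisons. In bulk RNA more cells with a transcript and more of it per cell cannot be told apart. MMP1 is known from activated fibroblasts, whose markers are given here, although all libraries came from cultures of HCT116 cells. On day 8 the sum of 10 fibroblast markers was 19.5 to 23.6 CPM in WT, 23.1 to 24.7 in DNMT1-AID, 38.0 to 46.5 in UHRF1-AID and 46.4 to 69.7 in the double degron cells. Of the 10 markers, 4 had enough reads for a test. Most of the sum was COL1A1, POSTN was at 0 in every group, and COL1A2, LUM, PDGFRA and THY1 were also at 0 in WT on that day. The sum was thus higher than in WT in 2 of the lines with higher collagenase levels, and its part in the rise was not tested.

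MMP2 and MMP9 are the gelatinases, which cut denatured collagen and the type IV collagen of basement membranes. MMP9 (ENSG00000100985.7, chromosome 20, 46008908 to 46016561, plus strand) was measured at 0.961, 0.585 and 0.607 CPM in WT on day 8, and at 4.79, 4.2 and 6.48 CPM in UHRF1-AID/DNMT1-AID. On day 6 the same lines gave 0.69, 0.833 and 0.412 CPM and 2.51, 2.28 and 2.59 CPM, and on day 2 they gave 0.781, 0.887 and 0.108 CPM and 2.93, 2.4 and 1.55 CPM. The 2 groups did not overlap on any day. The log2 fold change was 1.95 ± 0.43, 1.94 ± 0.38 and 2.85 ± 0.37 on days 2, 6 and 8 (SE, n = 3 and 3; edgeR adjusted p = 0.000552, 9.14e-05 and 2.92e-08). With an offset for GC content and length these values fell to 1.34, 1.19 and 1.54 and stayed past the threshold (adjusted p = 0.00845, 0.00661 and 0.000337). UHRF1-AID was above WT on day 2, at 2.23, 1.89 and 1.95 CPM (1.76 ± 0.42, adjusted p = 0.00128). It then gave 1.05, 1.49 and 0.999 CPM on day 6 and 1.17, 0.77 and 1.63 CPM on day 8, with adjusted p values of 0.0971 and 0.121.

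In DNMT1-AID the mean of MMP9 was 1.44 ± 0.559 (SD), 1.24 ± 0.168 and 1.19 ± 0.404 CPM on the 3 days, with log2 fold changes of 1.28, 0.95 and 0.71 that missed the threshold (edgeR adjusted p = 0.0936, 0.116 and 0.147). With the offset the day 8 values of DNMT1-AID and UHRF1-AID were -0.04 and -0.06. On day 8 UHRF1-AID/DNMT1-AID exceeded UHRF1-AID by 2.11 and DNMT1-AID by 2.15 in log2 fold change (adjusted p = 7.95e-06 and 6.91e-06), with no overlap. MMP9 shares 430 exon bases, 18.4% of its exons, with the antisense gene SLC12A5-AS1. That gene carried 1528 reads over all libraries beside 1422 of MMP9, and in UHRF1-AID/DNMT1-AID on day 8 it carried 395 beside 355. Both genes held more reads there than in WT on that day (48 and 52), and without a stated strand setting their reads cannot be told apart. MMP9 is also known from leukocytes. The sum of 10 leukocyte markers on day 8 was 27.1 to 38.5 CPM in WT and 21.8 to 29.6 in the double degron cells. Of the 7 of these markers tested, 6 were higher there and 1 was lower, beside 35.7% and 32.8% of all tested genes. The part of the markers in the result was not tested.

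**Figure D2:**
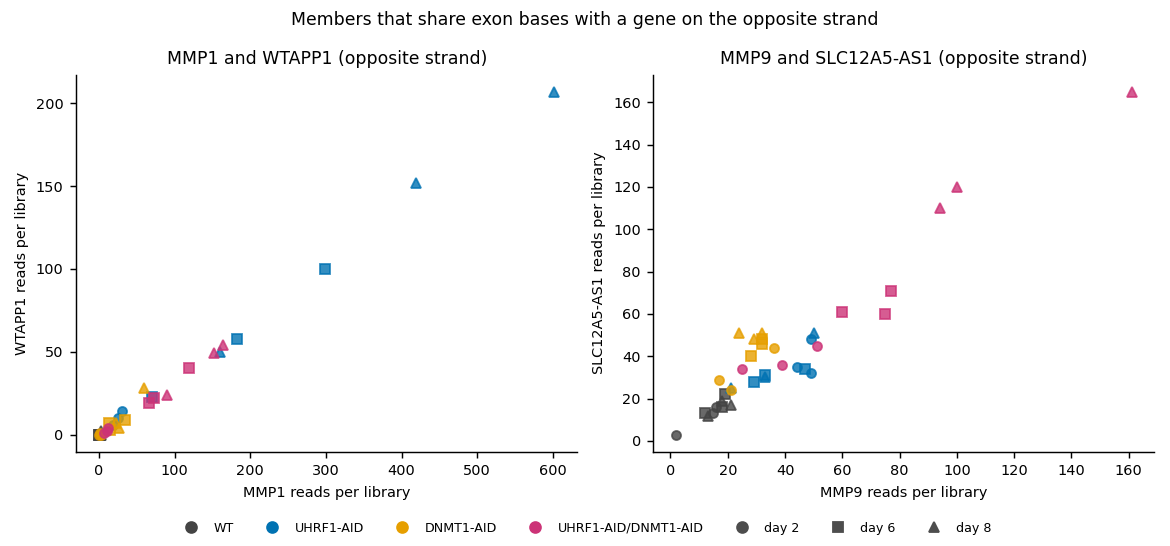
Reads of MMP1 against those of WTAPP1, and of MMP9 against those of SLC12A5-AS1, in each of the 36 libraries, coloured by line and shaped by day, on linear axes of reads per library. The libraries with the most reads of the protease gene lay high on the axis of its partner in both pairs, and over all libraries the totals were 896 for WTAPP1 and 2682 for MMP1, and 1528 for SLC12A5-AS1 and 1422 for MMP9.

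MMP2 (ENSG00000087245.13, chromosome 16, 55389700 to 55506691, plus strand) had 200 reads in all 36 libraries. The WT libraries held 0, 2 and 0 of these on day 2, then 7, 3 and 2 on day 6 and finally 0, 1 and 2 on day 8. In UHRF1-AID/DNMT1-AID the day 8 libraries held 7, 21 and 17 reads, all above WT, a ratio of 16.2 with a counting interval of 5.2 to 81.5 (edgeR adjusted p = 0.0016). UHRF1-AID on day 8 held 2, 5 and 38 reads, a ratio of 12.8 (interval 4.12 to 64.5; adjusted p = 0.00727), and without replicate 3, which held most of them, the log2 fold change was 1.53 with an adjusted p of 0.341. DNMT1-AID held 2, 0 and 0 reads on day 8, and its adjusted p was 0.818. No comparison of MMP2 with WT passed the test on day 2 or day 6.

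MMP7, matrilysin, is the small epithelial member and lacks the hemopexin domain of the others. It is the first gene of the chromosome 11 cluster (ENSG00000137673.9, minus strand, 102520508 to 102530750), and its AP-1 site stands in the printed sequence. WT held 9, 12 and 11 reads on day 2, then 11, 9 and 7 on day 6 and finally 10, 8 and 13 on day 8. The double degron cells held 2, 2 and 0 reads on day 2, then 7, 4 and 2 on day 6, and no reads on day 8. The day 8 level was at least 9.57-fold lower than in WT (31 reads against 0; edgeR adjusted p = 9.25e-06). The day 2 log2 fold change was -2.76 ± 0.84 (SE; adjusted p = 0.00357), and the day 6 value of -1.20 missed the threshold (adjusted p = 0.096) but was -1.58 and passed it with the offset for GC content and length (0.0187).

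In UHRF1-AID the reads of MMP7 were 4, 6 and 3 on day 2, then 1, 0 and 1 on day 6 and finally 5, 3 and 7 on day 8. The day 6 fall was 16-fold with a counting interval of 4.01 to 139 (27 reads against 2; edgeR adjusted p = 0.000534). The day 2 value of -1.61 passed the test (adjusted p = 0.0327) but was lost without WT replicate 2 or 3 (0.0957 and 0.0775) or UHRF1-AID replicate 1 or 3 (0.0833 and 0.126), and the day 8 value of -1.25 missed it (0.0649) but was -1.56 and passed it with the offset (0.0174). DNMT1-AID held 13, 5 and 3 reads, 5, 8 and 8 reads, and 9, 10 and 7 reads on the 3 days, with log2 fold changes of -0.49, -0.29 and -0.27 and adjusted p values of 0.675, 0.799 and 0.696. The 95% interval of its day 8 difference ran from -1.29 to 0.75, which includes the -1.25 of UHRF1-AID on that day. UHRF1-AID was below DNMT1-AID on day 6 (-3.43, adjusted p = 0.00518). That call was not made with only the libraries compared in the fit, where no member passed for this pair. The double degron cells were below both single lines on day 8, at least 3.96-fold below UHRF1-AID and at least 7.79-fold below DNMT1-AID (adjusted p = 0.00181 and 7.72e-05).

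MMP10, stromelysin 2, cuts proteoglycans and can activate other MMP precursors. It lies between MMP7 and MMP1 in the cluster (ENSG00000166670.10, minus strand, 102770502 to 102780628) and had 9 reads in all 36 libraries. Of these, 3 were in 1 UHRF1-AID/DNMT1-AID library of day 2, 4 in DNMT1-AID on day 6 and 2 in UHRF1-AID/DNMT1-AID on day 6, and WT had none. A change of MMP10 was not detectable at this depth. The cluster holds 9 MMP genes over 435.2 kb, in the order MMP7, MMP20, MMP27, MMP8, MMP10, MMP1, MMP3, MMP12 and MMP13, and the 6 other than MMP1, MMP7 and MMP13 never exceeded 6 reads in a library.

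MMP14 is a membrane-bound enzyme that cuts collagen at the cell surface and activates the MMP2 precursor. It was the most abundant of the 7 MMP transcripts in WT when levels were taken per exon length, at 5.95 CPM per kb on day 8. It made up 39.1% to 95.7% of the sum of these 7 on that scale over the 36 libraries. WT gave 17.1, 14.9 and 15.7 CPM on day 2, 30.1, 31.5 and 31.8 CPM on day 6 and 25.9, 28.2 and 28.4 CPM on day 8. DNMT1-AID gave 19.8, 20.0 and 19.9 CPM, 44.8, 48.6 and 48.4 CPM, and 42.5, 47.6 and 42.5 CPM on the same days, each library above each WT library of its day. The log2 fold change of DNMT1-AID was 0.60 ± 0.15 on day 6 and 0.68 ± 0.15 on day 8 (SE; edgeR adjusted p = 0.00706 and 0.00047). Under an offset for GC content and length it was 0.32 and 0.31 (adjusted p = 0.112 and 0.0744). UHRF1-AID gave 50.4, 33.4 and 45.8 CPM on day 6 and 49.8, 27.6 and 46.4 CPM on day 8, when replicate 2 lay within the range of WT.

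For UHRF1-AID the log2 fold change of MMP14 was 0.47 on day 6 and 0.59 on day 8 (edgeR adjusted p = 0.0211 and 0.00225) and 0.07 and 0.09 under the same offset (adjusted p = 0.705 and 0.603). The day 6 call was also lost without UHRF1-AID replicate 1 or 3 (0.124 and 0.0767) or WT replicate 1 or 2 (0.0759 and 0.0511). UHRF1-AID/DNMT1-AID gave 29.6, 27.7 and 35.6 CPM on day 6 and 26.4, 33.4 and 34.0 CPM on day 8. No difference from WT passed the test on any day (adjusted p = 0.224, 0.966 and 0.287), but with the offset the 3 values became -0.55, -0.46 and -0.48 and passed it (0.00697, 0.0069 and 0.00404), the day 8 value having been 0.19 without it. The line without both proteins was below DNMT1-AID in MMP14 on days 2, 6 and 8, by 0.61, 0.61 and 0.50 on the log2 scale (adjusted p = 0.0165, 0.00345 and 0.00831). In WT itself MMP14 was 0.97 higher on day 6 and 0.79 higher on day 8 than on day 2 (adjusted p = 2.75e-06 and 8.11e-05).

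TIMP1 blocks most secreted MMPs and was the most abundant member per exon length. It lies within an intron of SYN1, sharing no exon bases with it (ENSG00000102265.12, chromosome X, 47582408 to 47586789, plus strand). On day 8 the libraries gave 325, 378 and 351 CPM in WT, 505, 624 and 651 CPM in DNMT1-AID, 512, 619.5 and 473 CPM in UHRF1-AID and 1118, 1064 and 1018 CPM in the double degron cells. No degron library overlapped WT on that day, and the double degron libraries stood above both single lines. The log2 fold changes were 0.76, 0.61 and 1.60 in this order, each ± 0.09 (SE, n = 3 and 3; edgeR adjusted p = 7.76e-08, 3.14e-06 and 6.93e-16).

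The size and in part the direction of the TIMP1 changes depended on how the libraries were scaled. An offset for GC content and length lets the fit follow a bias that differs between libraries. With it the same 3 values became -0.03, -0.22 and 0.26 (edgeR adjusted p = 0.773, 0.0274 and 0.00754). A rise passed the test under both scalings in the double degron cells only. On day 6 the WT libraries gave 251, 261 and 256 CPM and those of UHRF1-AID/DNMT1-AID 294, 295 and 271 CPM, a difference of 0.16 that missed the threshold (adjusted p = 0.17). On day 2 the same lines gave 299.8, 318 and 306 CPM and 357, 368 and 331 CPM (0.19, adjusted p = 0.128), and no single line passed the test on day 2 or 6. With the offset the day 2 values became -0.51 in the double degron cells and -0.49 in UHRF1-AID (adjusted p = 1.17e-05 and 2.67e-05). The day 6 values became -0.31 for DNMT1-AID, -0.48 for UHRF1-AID and -0.63 for the double degron cells (0.00934, 2.58e-05 and 9.32e-08), so that each of these 5 was then lower than in WT. UHRF1-AID/DNMT1-AID exceeded UHRF1-AID by 1.00 and DNMT1-AID by 0.85 on day 8 (adjusted p = 1.35e-09 and 1.13e-08), both without the offset. With it the day 8 values against WT lay closer together, at 0.26 in UHRF1-AID/DNMT1-AID, -0.22 in UHRF1-AID and -0.03 in DNMT1-AID. The change from day 2 to day 8 beyond that of WT was 1.41 in UHRF1-AID/DNMT1-AID (adjusted p = 1.18e-09), and 0.76 with the offset (adjusted p = 5.18e-06).

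**Figure D3:**
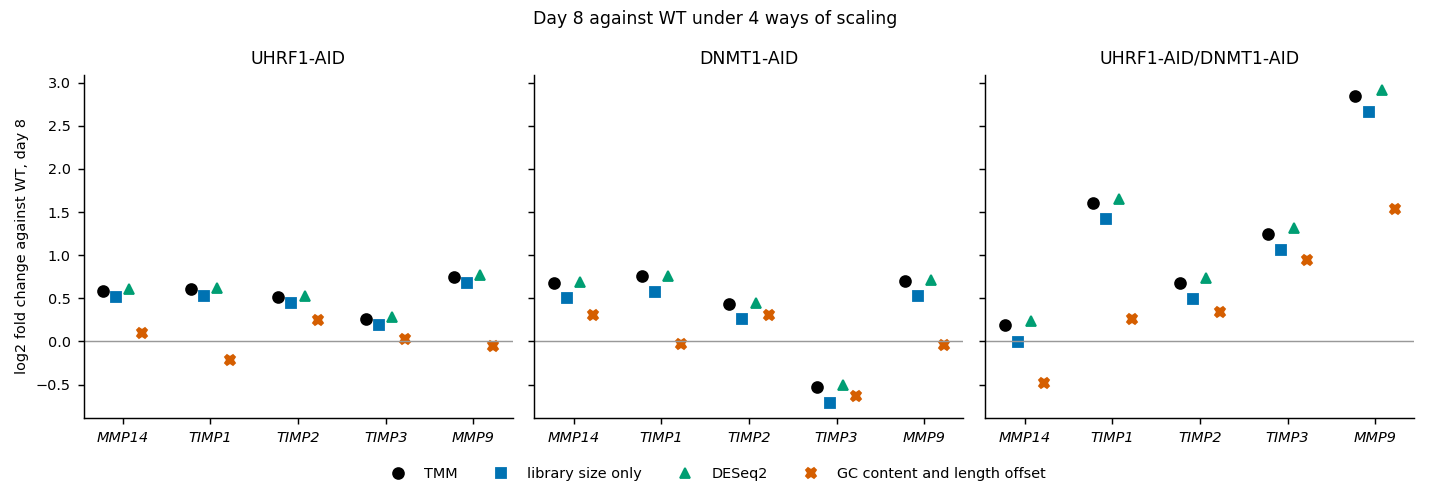
Log2 fold change against WT on day 8 of MMP14, TIMP1, TIMP2, TIMP3 and MMP9 in the 3 degron lines (panels) under 4 ways of scaling (symbols), with a point for each fit. With the offset for GC content and length TIMP1 went from 0.76 to -0.03 in DNMT1-AID and from 0.61 to -0.22 in UHRF1-AID, and stayed above 0 in the double degron cells, at 0.26.

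TIMP2, which blocks MMPs and takes part in the activation of the MMP2 precursor on MMP14, differed from WT of the same day by less than 2-fold. It lies on chromosome 17 (ENSG00000035862.12, 78852977 to 78925387, minus strand). On day 8 it was at 239.8, 276 and 244 CPM in WT, 335, 339 and 355 CPM in DNMT1-AID, 351, 355 and 379 CPM in UHRF1-AID and 357, 426 and 433 CPM in the double degron cells, with no degron library overlapping WT. The log2 fold changes were 0.44, 0.51 and 0.68 in this order, each ± 0.13 (SE; edgeR adjusted p = 0.00466, 0.00117 and 1.73e-05), and that of DNMT1-AID fell to 0.26 with library size alone as the scale (adjusted p = 0.0923). On day 6 UHRF1-AID (0.40, adjusted p = 0.0168) and the double degron cells (0.54, adjusted p = 0.00078) were above WT, the former not with the GC content and length offset (0.19, adjusted p = 0.172) or without WT replicate 1 (0.0625). No line differed from WT on day 2 by this test, where the values were 0.23, -0.30 and 0.24 in the same order (adjusted p = 0.342, 0.0788 and 0.154). That of UHRF1-AID passed it with the offset (-0.32, 0.0251) and without UHRF1-AID replicate 3 (-0.52, 0.000999). UHRF1-AID was below DNMT1-AID by 0.53 (adjusted p = 0.00298, and 0.0669 without DNMT1-AID replicate 2) and below the double degron cells by 0.54 (0.00254). The latter call was lost with only the libraries compared in the fit, where no member passed for that pair on day 2. TIMP2 shares 224 exon bases with CEP295NL on its own strand and 367 with ENSG00000267601 on the other, which are 3.6% and 5.9% of its exons.

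TIMP3 binds to the matrix and blocks ADAM enzymes as well as MMPs, and its CpG-rich start is a known site of methylation in tumours. It lies within an intron of SYN3 (ENSG00000100234.12, chromosome 22, 32801705 to 32863041, plus strand) and was low, at 1.23, 1.36 and 1.61 CPM in WT on day 6 and 1.19, 0.855 and 1.45 CPM on day 8. UHRF1-AID/DNMT1-AID gave 3.04, 3.26 and 4.92 CPM on day 6 and 3.41, 3.15 and 1.85 CPM on day 8, above WT without overlap on both days. The log2 fold changes were 1.40 ± 0.41 and 1.24 ± 0.42 (SE; edgeR adjusted p = 0.00567 and 0.00991). Neither single line passed the test on any day, with day 8 means of 1.41 ± 0.0879 CPM (SD) in UHRF1-AID and 0.835 ± 0.253 CPM in DNMT1-AID. UHRF1-AID/DNMT1-AID exceeded DNMT1-AID on days 6 and 8, by 1.22 and 1.77 (adjusted p = 0.0258 and 0.00139). It exceeded UHRF1-AID on day 8 by 0.98 with an adjusted p of 0.0507.

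**Figure D4:**
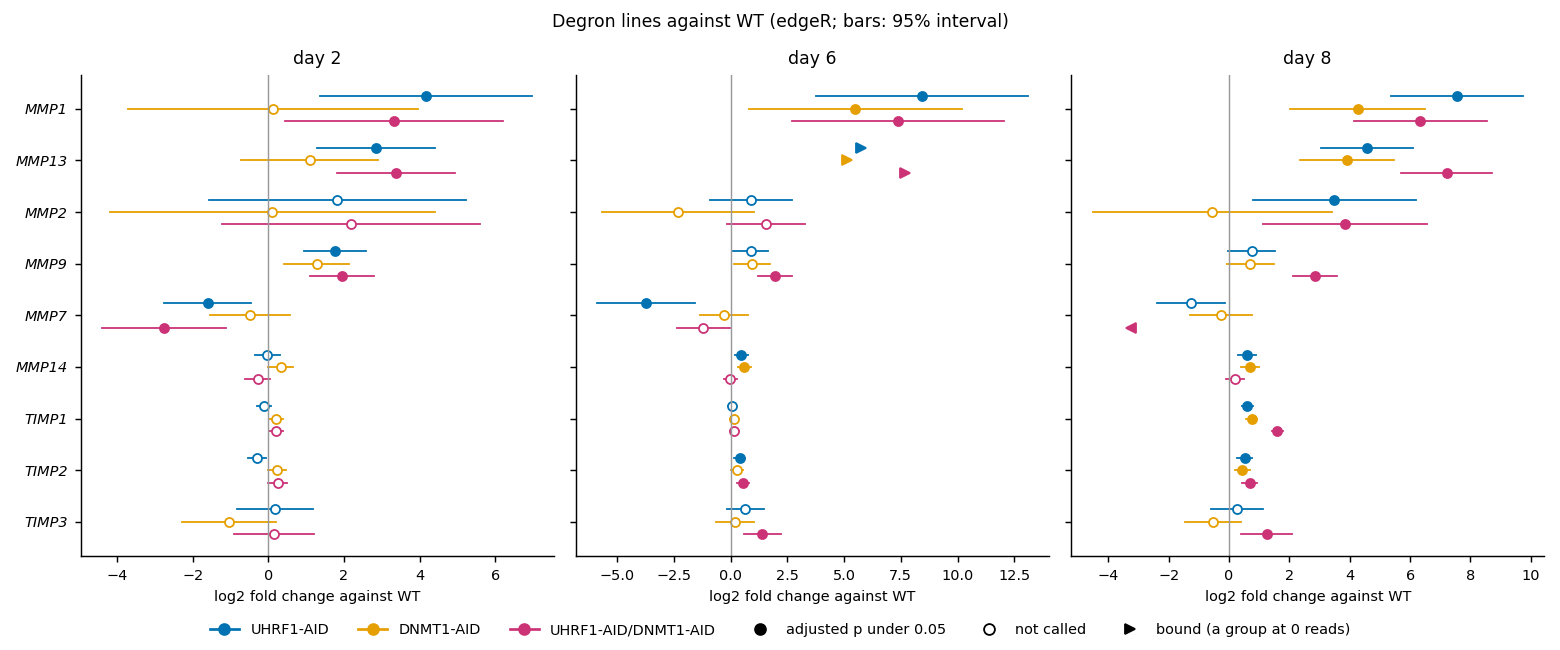
Log2 fold change against WT of the 9 members with enough reads for a test, for each degron line and day, with 95% intervals, where filled points had an adjusted p under 0.05 and triangles mark the bound where 1 group was at 0 reads. MMP1 reached 7.55 in UHRF1-AID and MMP13 reached 7.21 in UHRF1-AID/DNMT1-AID on day 8, while TIMP2 stayed under 1 throughout and TIMP1 passed 1 in UHRF1-AID/DNMT1-AID on day 8 only, where it was 1.60 and 0.26 with the offset for GC content and length.

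Counted by comparison, the members were read against the share of all tested genes that passed the same test. In UHRF1-AID against WT on day 2, 3 of the 9 members tested were higher and 1 was lower, where 12.1% of tested genes were higher and 14.4% lower. On day 6, 4 were higher and 1 lower (14.3% and 10.5% of tested genes), and on day 8, 6 were higher and 0 lower (24.2% and 21%). In DNMT1-AID no member passed on day 2, when 2.67% and 0.714% of tested genes did, although MMP9 and TIMP1 had an unadjusted p under 0.05 and DESeq2 called MMP9 (adjusted p = 0.0418). On day 6, 3 members were higher (8.84% and 4.35%), and on day 8, 5 were higher (25.1% and 22.4%). In UHRF1-AID/DNMT1-AID, 3 were higher and 1 lower on day 2 (16.3% and 11.5%), 5 were higher on day 6 (19% and 21.9%), and 7 were higher and 1 lower on day 8 (35.7% and 32.8%). The 3 lines share their WT libraries on each day, so these counts are not independent of each other. MMP1, MMP2 and MMP13 entered the test through the degron groups in which they were high, and MMP7 through WT and DNMT1-AID. Their calls, here and between the degron lines, therefore follow in part from the filter. The counts were not tested against the shares.

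The degron lines were also set against each other. UHRF1-AID/DNMT1-AID against UHRF1-AID gave 3 higher (MMP9, MMP13 and TIMP1) and 3 lower (MMP1, MMP7 and MMP14) on day 8, where 20.4% of tested genes were higher and 23.5% lower, and against DNMT1-AID it gave 6 higher and 2 lower (22.2% and 24%). UHRF1-AID against DNMT1-AID gave MMP1 and MMP2 higher and none lower on day 8 (10% and 8.24%). On day 2 the same pair gave MMP1 and MMP13 higher and TIMP1 and TIMP2 lower (7.21% and 12.7%), and on day 6 it gave MMP1 higher and MMP7 lower (5.52% and 5.1%). On day 2 UHRF1-AID/DNMT1-AID was above UHRF1-AID in TIMP1 and TIMP2 (12.1% and 5.6%), and against DNMT1-AID it was above in MMP13 and below in MMP7 and MMP14 (6.1% and 4.72%). On day 6 it was above UHRF1-AID in MMP9 and MMP13 and below in MMP14 (5.41% and 5.39%), and it was above DNMT1-AID in 5 members and below in MMP14 (10.1% and 13%). TIMP1 in UHRF1-AID/DNMT1-AID against UHRF1-AID on day 2 was 0.31 and turned to -0.02 with the GC content and length offset.

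Several of these differences between degron lines rested on single libraries. On day 6 the call of MMP9 in the double degron cells was lost against DNMT1-AID without any 1 of the 6 libraries (edgeR adjusted p = 0.0617 to 0.132) and against UHRF1-AID without any but UHRF1-AID replicate 2 (0.0707 to 0.153), and the offset ended both (0.121 and 0.0642). MMP14 against UHRF1-AID was lost on day 6 without replicate 1 or 3 of UHRF1-AID or 1 or 2 of the double degron cells (0.123 to 0.211). On day 8 it was lost without replicate 1 or 3 of UHRF1-AID or 1 of the double degron cells (0.149 to 0.244). Against DNMT1-AID it was lost on day 2 without replicate 2 of either line (0.053 and 0.0972) and on day 8 without double degron replicate 1 (0.0557). TIMP3 against DNMT1-AID on day 6 was lost without DNMT1-AID replicate 1 or 2 or double degron replicate 3 (0.153, 0.0717 and 0.114), and MMP2 without DNMT1-AID replicate 3 (0.0519). MMP2 in UHRF1-AID against DNMT1-AID on day 8 was lost without UHRF1-AID replicate 3 or DNMT1-AID replicate 2 (0.33 and 0.0592). MMP7 in the double degron cells against DNMT1-AID on day 2 was lost without any 1 library but DNMT1-AID replicate 3 (0.0597 to 0.319). TIMP1 on day 2 was lost in UHRF1-AID against DNMT1-AID without UHRF1-AID replicate 1 or DNMT1-AID replicate 2 (0.154 and 0.0731), and in the double degron cells against UHRF1-AID without UHRF1-AID replicate 1 or double degron replicate 1 or 2 (0.218, 0.0661 and 0.0936).

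The change from day 2 to day 8 was tested against that of WT, which moved on its own. In WT on day 6 against day 2, MMP14 and TIMP2 rose and MMP13 and TIMP1 fell (35.7% of tested genes rose and 32.1% fell). The fall of MMP13 rested on 6 reads of 1 day 2 library, and that of TIMP1, -0.27, turned to 0.03 with library size alone as the scale. On day 8 against day 2, MMP14 and TIMP2 were higher (30.1% and 29.7%), and on day 8 against day 6, TIMP1 was higher (17.6% and 17%). Beyond this, TIMP1 rose from day 2 to day 8 in UHRF1-AID by 0.72 and TIMP2 by 0.81 (edgeR adjusted p = 0.000208 and 0.00139; 10.7% and 7.09% of tested genes), and TIMP1 rose in DNMT1-AID by 0.55 (0.00452; 7.05% and 9.28%). With the offset, these TIMP1 values were 0.27 and 0.02 (adjusted p = 0.11 and 0.949). In UHRF1-AID/DNMT1-AID the 2 calls were TIMP1 and MMP13 (16.1% and 22.6%). That of MMP13, 3.83 with an adjusted p of 0.0105, became -0.62 with an adjusted p of 0.659 without WT day 2 replicate 3, the only WT library of that day with reads of the gene. A block on the replicate number within each line, chosen after seeing the data, gave 2 calls in DNMT1-AID, 3 in UHRF1-AID and 4 in the double degron cells. Between days 2 and 8 the same numbers correlated at -0.05 to 0.011 in WT and -0.071 to 0.103 in the double degron cells. The numbers thus did not pair the libraries of WT or of the double degron cells. In UHRF1-AID the same numbers correlated at 0.186 to 0.326, and other numbers at -0.231 to 0.003. In DNMT1-AID the same numbers correlated at 0.119 to 0.14, and other numbers at -0.078 to -0.045. Libraries of the same number were thus more alike in these 2 lines. The added calls were MMP14 in UHRF1-AID (0.58, adjusted p = 0.00221, against 0.0579 without the block), MMP13 in DNMT1-AID (2.93, 0.0365), and MMP14 (0.47, 0.00804) and TIMP2 (0.44, 0.0322) in the double degron cells.

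Per exon length the 3 TIMP members exceeded the 7 MMP members in every library. The other MMP genes are not counted here. Among them, MMP15 had 139336 reads over the 36 libraries on 4231 exon bases, where MMP14 had 27354 on 4623. The 3 TIMPs summed to 187 to 831 CPM per kb and the 7 MMPs to 3.84 to 19.6, a ratio of 16.1 to 69.4, and TIMP1 made up 73.1% to 93.0% of the TIMP sum. On day 8 the ratio was 43.7 ± 2.29 (SD, n = 3) in WT, 41.7 ± 4.71 in DNMT1-AID, 31.7 ± 16.7 in UHRF1-AID and 51.2 ± 5.20 in the double degron cells. Both sums were higher in the double degron cells of day 8 than in WT, at 803 and 15.8 CPM per kb against 284 and 6.50, while their ratio, 46.7 to 56.9 in single libraries, lay just above the 42.3 to 46.3 of WT and overlapped that of the single lines. TIMP1 was 91.8% of the TIMP sum there. These sums carry no offset for GC content and length, with which the TIMP1 rise shrank and MMP14 was below WT (-0.48). MMP14 supplied 91.5% of the MMP sum in WT on day 8 and 42.8% in the double degron cells. There MMP13 stood at 4.52, MMP9 at 2.21 and MMP1 at 2.14 CPM per kb beside 6.76 of MMP14.

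**Figure D5:**
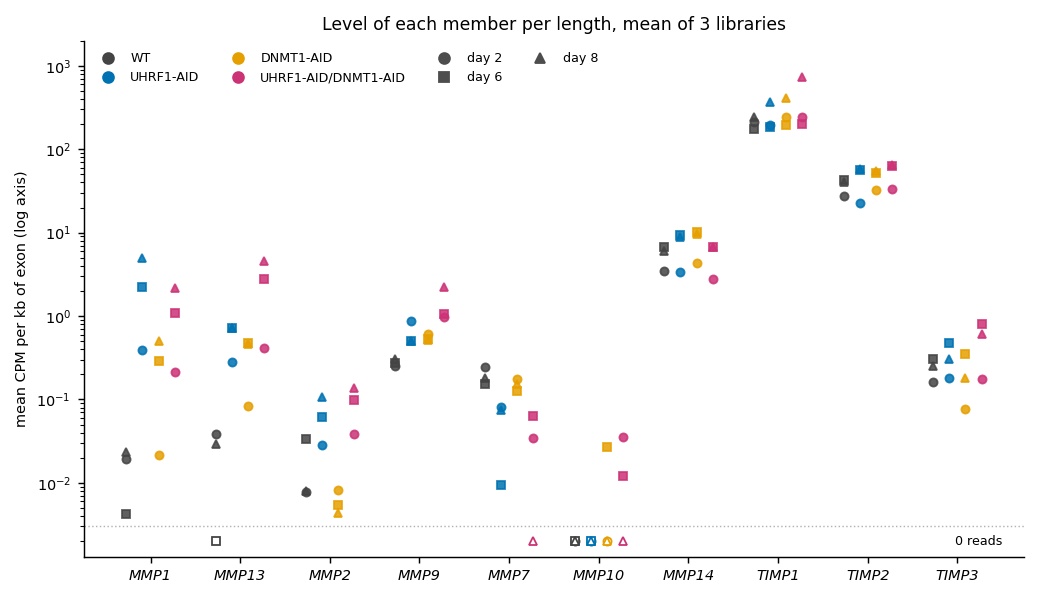
Mean level per exon length of the members in the 12 groups, in CPM per kb on a log axis, coloured by line and shaped by day, with groups at 0 reads below the dotted line. TIMP1, from 177 CPM per kb in WT on day 6 to 738 in UHRF1-AID/DNMT1-AID on day 8, and TIMP2, at 22.6 to 65.3, lay above MMP14, at 2.82 to 10.2, in every group, and on day 8 MMP1 reached 4.97 in UHRF1-AID and MMP13 reached 4.52 in the double degron cells.

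Of 17 other genes of the family, TIMP4 included, 10 had enough reads for a test. On day 8 the count against WT was 7 higher and 1 lower for UHRF1-AID, 6 higher and 0 lower for DNMT1-AID, and 7 higher and 2 lower for the double degron cells, where the shares of all tested genes were those given above for the members. The medians were 0.60, 0.55 and 0.97 in log2 fold change beside 0.03, 0.02 and 0.03 over all tested genes. MMP17, a membrane-anchored MMP, was at 19.9, 19.3 and 19.7 CPM in WT and 74.3, 84.2 and 74.6 CPM in UHRF1-AID/DNMT1-AID (1.98, edgeR adjusted p = 4.42e-11). MMP19 and MMP24 rose by 1.94 and 1.13 in the same comparison, and MMP16, another membrane-type enzyme, held 88 reads against 1, a ratio of 95 with a counting interval of 16.6 to 3800. MMP23B gave 5.06 (adjusted p = 4.61e-16) but is near-identical to the pseudogene MMP23A, so its value is uncertain. MMP25, a leukocyte enzyme, fell by 0.87 (adjusted p = 0.000778).

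Genes that activate, block or bind pericellular proteases moved in both directions. Of 24 such genes 23 were tested, and on day 8 those higher and lower than in WT were 12 and 2 in DNMT1-AID, 9 and 2 in UHRF1-AID and 11 and 3 in the double degron cells. Among all tested genes the shares were 25.1% and 22.4%, 24.2% and 21%, and 35.7% and 32.8% in this order. The 4 with the largest called change in the last comparison were LCN2 (5.47), TFPI2 (3.81), BSG (1.76) and CST3 (1.29; edgeR adjusted p = 5.88e-07, 2.79e-06, 5.21e-18 and 1.52e-15). LCN2 binds MMP9, TFPI2 is a serine protease inhibitor of the matrix, BSG induces MMPs at the cell surface, and CST3 inhibits cysteine proteases. Among ADAM and ADAMTS genes, 13 of 18 tested, ADAM8 (4.30), ADAMTS4 (3.41) and ADAMTS7 (0.81) rose and ADAM9 fell by 1.09, with 3 higher and 3 lower in all, beside 35.7% and 32.8% of tested genes. Of 22 transcription factors known to act on MMP promoters, each of which was tested, 6 were higher and 9 lower in UHRF1-AID/DNMT1-AID on day 8, beside the same 35.7% and 32.8%, among them ATF3 (1.32), ETV1 (-2.38), ELK3 (-1.82) and ETS1 (-1.56). The median of these factors was -0.19 there, beside 0.03 over all tested genes.

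The genes whose 12 group means followed a member most closely were listed with Pearson's r of log2 CPM, over groups that share library depth, line and day, as a description. For MMP1 they were RASAL3, ZAP70 and GRAP (0.982, 0.978 and 0.974), and for MMP13 they were PNMA6E, SSX1 and PNMA5 (0.991, 0.989 and 0.983). For TIMP1 they were PRR5, CST3 and ENSG00000288053 (0.991, 0.984 and 0.98), for MMP14 they were C1R, RAB43 and UTP14A (0.979, 0.976 and 0.972), and for TIMP3 they were OXTR, OGDH and ZSCAN12 (0.968, 0.962 and 0.953). TIMP2 was followed by COL6A1, CEP295NL and LMF2 (0.994, 0.985 and 0.985), of which CEP295NL shares exon bases with it. The closest genes of MMP9, CLEC2L, FAM50B and DNAJC28, reached 0.937, 0.934 and 0.918, those of MMP2, GLS2, RTN1 and CTSF, reached 0.96, 0.951 and 0.927, and those of MMP7, ABCF2, DIS3L and MTHFD1, reached 0.91, 0.909 and 0.909. Over the 36 single libraries the 3 closest genes of MMP2 were all others, at 0.7655 to 0.8065. For MMP7 only MTHFD1 stayed among the closest 3, at 0.823.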

How the data were processed

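The deposited files hold raw read counts per gene, 1 file for each of the 36 libraries, with 60648 gene identifiers. Per the study's methods and the labels, the authors sequenced polyA RNA in pairs of reads, trimmed them, aligned them with STAR to hg38 and made the counts with featureCounts; the annotation release and, for these gene counts, the strand setting and the treatment of multi-mapping reads are not given in the sources used here, although a non-stranded mode is named for repeat counts of the same libraries. Identifiers were matched to GENCODE release 44, and 186 did not match.

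Counts were tested with edgeR 4.0.16 (R 4.3.3): TMM scaling, filterByExpr with a count minimum of 10, protein-coding genes, 12 groups, a robust quasi-likelihood fit with 24 residual degrees of freedom, and Benjamini-Hochberg adjustment within each of 24 comparisons at 0.05. A count of 0 was given a limit of 3 reads over the group, and intervals of ratios are exact 95% intervals for counting error only. Alternatives were DESeq2 1.42.0, other scalings and filters, an offset for GC content and length, the libraries compared alone, a replicate block and leaving out each library. On simulated counts for UHRF1-AID against WT on day 8 over 15415 genes, 37 of 67 genes changed 1.5-fold, 58 of 67 changed 2-fold and 60 of 66 changed 4-fold were called. Totals ran from 21074536 to 37175136 reads, and members under 1 CPM rest on few of them. No 2 libraries held identical counts.

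The members and lists were chosen with earlier results of these data known. The genes named are the members, the degron targets, the other MMP genes called with a log2 fold change above 1 in size in a comparison with WT, the 4 largest called changes of each other list in UHRF1-AID/DNMT1-AID against WT on day 8, and the 3 genes of most like pattern for each member. Promoters are from RefSeq (GRCh38.p14).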

Additional observations from a re-analysis of the deposited data

Results flagged for a closer look

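The differences listed here are between degron lines or between changes over time, where the difference itself passed the edgeR test; values are log2 fold changes with adjusted p. On day 2, UHRF1-AID differed from DNMT1-AID in MMP1 (4.06, 0.003), MMP13 (1.76, 0.0271), TIMP2 (-0.53, 0.00298) and TIMP1 (-0.32, 0.0148). UHRF1-AID/DNMT1-AID differed from UHRF1-AID in TIMP2 (0.54, 0.00254) and TIMP1 (0.31, 0.0222), and from DNMT1-AID in MMP7 (-2.28, 0.0443), MMP13 (2.28, 0.00619) and MMP14 (-0.61, 0.0165).

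On day 6, UHRF1-AID differed from DNMT1-AID in MMP7 (-3.43, 0.00518) and MMP1 (2.92, 0.000113). UHRF1-AID/DNMT1-AID differed from UHRF1-AID in MMP13 (1.97, 0.000102), MMP14 (-0.48, 0.0355) and MMP9 (1.06, 0.0418), and from DNMT1-AID in MMP1 (1.88, 0.00472), MMP13 (2.54, 1.27e-06), MMP14 (-0.61, 0.00345), MMP2 (3.90, 0.0117; 41 reads against 2), MMP9 (0.99, 0.0375) and TIMP3 (1.22, 0.0258). Without UHRF1-AID replicate 2, UHRF1-AID/DNMT1-AID was also below UHRF1-AID in MMP1 (-1.45, 0.00752).

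On day 8, UHRF1-AID differed from DNMT1-AID in MMP1 (3.29, 4.67e-06) and MMP2 (4.04, 0.0115; 45 reads against 2, of which 38 were in 1 library). UHRF1-AID/DNMT1-AID differed from UHRF1-AID in MMP7 (-5.10, 0.00181), MMP1 (-1.21, 0.012), MMP13 (2.64, 1.29e-07), MMP14 (-0.40, 0.0329), MMP9 (2.11, 7.95e-06) and TIMP1 (1.00, 1.35e-09). It differed from DNMT1-AID in MMP7 (-6.08, 7.72e-05), MMP1 (2.08, 0.000329), MMP13 (3.30, 4.24e-09), MMP14 (-0.50, 0.00831), MMP2 (4.40, 0.00162), MMP9 (2.15, 6.91e-06), TIMP3 (1.77, 0.00139) and TIMP1 (0.85, 1.13e-08). The fitted values of MMP7 are against a group at 0 reads, depend on the prior count and are no bound; the bounds stand in the report as at least 3.96-fold and at least 7.79-fold lower.

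The change from day 2 to day 8 differed from that of WT in UHRF1-AID for TIMP2 (0.81, 0.00139) and TIMP1 (0.72, 0.000208), in DNMT1-AID for TIMP1 (0.55, 0.00452), and in UHRF1-AID/DNMT1-AID for MMP13 (3.83, 0.0105; -0.62 without WT day 2 replicate 3) and TIMP1 (1.41, 1.18e-09).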

How the results depend on the processing

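The offset for GC content and length changed the most. It turned TIMP1 against WT to -0.51 in the double degron cells on day 2, to -0.31 in DNMT1-AID, -0.48 in UHRF1-AID and -0.63 in the double degron cells on day 6, and to -0.22 in UHRF1-AID and -0.033 in DNMT1-AID on day 8; TIMP1 in UHRF1-AID/DNMT1-AID to -0.019 against UHRF1-AID on day 2 and to -0.33 against DNMT1-AID on day 6; and MMP14 to -0.48 in UHRF1-AID/DNMT1-AID against WT on day 8. With it 8 members were called in UHRF1-AID/DNMT1-AID against WT on day 6, 3 in DNMT1-AID against WT on day 8, 0 for the change over time in DNMT1-AID and 2 for WT on day 6 against day 2. Library size alone turned TIMP1 in WT on day 6 against day 2 to 0.025 and left 1 call for UHRF1-AID/DNMT1-AID against UHRF1-AID on day 2; relative to TMM it moved the median of all genes by -0.18 in DNMT1-AID and -0.19 in the double degron cells against WT on day 8, and by 0.29 in WT on day 6 against day 2. The cause was not tested.

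Fitting only the libraries compared gave 6 calls in DNMT1-AID against WT on day 6; 1, 0 and 1 in UHRF1-AID against DNMT1-AID on days 2, 6 and 8; 0 in UHRF1-AID/DNMT1-AID against UHRF1-AID on day 2; 2 for the change over time in DNMT1-AID and 4 in the double degron cells; and 2 in WT on day 8 against day 6. DESeq2 called 1 member in DNMT1-AID against WT on day 2, 4 for the change over time of UHRF1-AID, 3 for DNMT1-AID and 4 for the double degron cells, and 2 in WT on day 8 against day 6.

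The replicate numbers did not pair the libraries of the groups compared: the correlation of deviations ran from -0.08 to 0.126 over 21 comparisons, between lines and between days of WT. With the replicate block 211 values kept direction and side of the threshold, 4 passed it newly and 1 missed it. The block with the offset gave -0.031 for TIMP1 in DNMT1-AID on day 8, -0.021 for TIMP1 against UHRF1-AID on day 2, the other reversed values above to 2 decimals and 8, 0 and 2 calls as without the block, and 5 calls in UHRF1-AID/DNMT1-AID against DNMT1-AID on day 2. Same numbers within a line correlated across days at 0.186 to 0.383 in UHRF1-AID and 0.119 to 0.287 in DNMT1-AID. In the double degron cells this was -0.071 to 0.309, and in WT -0.05 to 0.03. A block on them, an alternative chosen after seeing the data, gave 3 calls for the change over time in UHRF1-AID. It gave 2 in DNMT1-AID, 4 in the double degron cells and 2 in WT on day 8 against day 6.

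Leaving out 1 library at a time gave 3 to 5 calls in UHRF1-AID against WT on day 6, the lowest without WT replicate 1. For UHRF1-AID against DNMT1-AID it gave 2 to 4 on day 2, the lowest without DNMT1-AID replicate 2, and 1 to 2 on day 8, the lowest without UHRF1-AID replicate 3 or DNMT1-AID replicate 2. For UHRF1-AID/DNMT1-AID against UHRF1-AID it gave 1 to 2 on day 2, the lowest without UHRF1-AID replicate 1 or double degron replicate 1 or 2, and 1 to 5 on day 6, the lowest without UHRF1-AID replicate 1 or 3 or double degron replicate 1 or 2 and the highest without UHRF1-AID replicate 2. Against DNMT1-AID on day 2 it gave 1 to 3, the lowest without replicate 2 of either line, and WT on day 8 against day 6 gave 1 to 2, the highest without WT day 8 replicate 1. Without WT day 2 replicate 3, MMP13 gave -0.62 for the change over time in UHRF1-AID/DNMT1-AID, within a range of -0.62 to 4.81, and 0 in WT on day 6 against day 2, within -5.03 to 0. MMP1, MMP2, MMP7 and MMP13 in WT or degron groups with under 10 reads are limited by depth.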
